A study of Mus musculus with 15 samples.

Results

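Collagens and the enzymes that modify them were examined in RNA-Seq values of NMuMG-derived cell lines. Genes were taken by name, as every collagen chain (Col followed by a type number, a and a chain number), prolyl 4-hydroxylase alpha subunit (P4ha), lysyl hydroxylase (Plod) and lysyl oxidase (Lox and Loxl) listed in either of 2 datasets. This gave 43 of the 15701 listed genes, of which 32 are collagen chains and 11 are enzymes. The first dataset lists 37 of them and the second lists 38, with 32 in both.

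NMuMG is an established mouse mammary gland epithelial line, and PCBP1 is an RNA-binding protein whose knockdown the study used as a model of epithelial-mesenchymal transition. The second dataset compares 2 NMuMG samples, for which the labels give no treatment and which the paper calls cells with a scrambled shRNA, with 2 samples of NMuMG cells carrying an shRNA against PCBP1 (shPCBP1). In the first dataset all 11 libraries come from shPCBP1 cells, so no cells without the knockdown are among them. Of these, 4 are shPCBP1 lines (1 unaltered line and 3 control clones, CT 1 to 3, that received Cas9 without a gene-specific guide RNA). Another 3 are clones with a CRISPR-Cas9 knockout of FAM3C, a secreted cytokine-like protein. A further 3 are clones with a knockout of LIFR, the leukaemia inhibitory factor receptor. The last library is labelled a double knockout of both genes, and its label does not call it a clone. Each CT, FAM3C knockout or LIFR knockout library is 1 clonal line sequenced once, so replicates of a knockout are different clones. Nothing in the labels says that the paired samples of the second dataset came from separate cultures. The p-values given here therefore measure only the spread between these samples. In bulk RNA, fewer cells expressing a gene and less RNA per cell cannot be told apart.

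Collagens are secreted triple-helical proteins of the extracellular matrix. Fibrillar types such as I, III and V build fibrils, type IV forms the network of basement membranes, type VI forms beaded filaments, type VII anchors epithelium to the stroma, and fibril-associated types such as XII bind the surface of fibrils. Before secretion, prolyl 4-hydroxylases stabilise the helix and lysyl hydroxylases prepare lysines for glycosylation and cross-linking. Outside the cell, lysyl oxidases start the cross-links between chains. In the mammary gland, epithelial cells rest on a type IV collagen sheet, and fibrillar collagen is made mainly by stromal fibroblasts.

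Promoter sequence is shown for the genes on which the results turn. RefSeq (GRCm38.p6) gave windows of 300 bases, from 250 before to 50 after the annotated start, for 30 of the 43 genes (32 windows). Col4a1 and Col4a2, the major type IV chains, are transcribed away from each other, and their windows on chr8:11312777-11313076 (minus strand) and chr8:11312555-11312854 (plus strand) share the 78 bases in capitals, each printed 5′ to 3′ on its own strand.
Col4a1: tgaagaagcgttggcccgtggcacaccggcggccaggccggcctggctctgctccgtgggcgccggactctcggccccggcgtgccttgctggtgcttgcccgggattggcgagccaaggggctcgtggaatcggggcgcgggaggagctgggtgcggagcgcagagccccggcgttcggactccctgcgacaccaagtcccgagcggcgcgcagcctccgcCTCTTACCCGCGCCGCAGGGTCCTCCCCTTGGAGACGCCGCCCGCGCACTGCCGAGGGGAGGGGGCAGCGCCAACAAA
Col4a2: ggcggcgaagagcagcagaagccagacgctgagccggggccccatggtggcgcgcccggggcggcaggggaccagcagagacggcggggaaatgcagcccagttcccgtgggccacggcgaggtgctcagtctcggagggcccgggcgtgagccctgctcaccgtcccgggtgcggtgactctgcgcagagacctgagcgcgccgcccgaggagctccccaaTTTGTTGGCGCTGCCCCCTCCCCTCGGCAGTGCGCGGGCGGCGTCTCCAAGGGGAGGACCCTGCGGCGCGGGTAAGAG
For Col5a1 (chr2:27886175-27886474, plus strand), Loxl4 (chr19:42612757-42613056, minus strand) and P4ha2 (chr11:54100674-54100973, plus strand), the capitals mark the GC box letters GGGCGG on either strand, with 2, 3 and 4 matches in turn.
Col5a1: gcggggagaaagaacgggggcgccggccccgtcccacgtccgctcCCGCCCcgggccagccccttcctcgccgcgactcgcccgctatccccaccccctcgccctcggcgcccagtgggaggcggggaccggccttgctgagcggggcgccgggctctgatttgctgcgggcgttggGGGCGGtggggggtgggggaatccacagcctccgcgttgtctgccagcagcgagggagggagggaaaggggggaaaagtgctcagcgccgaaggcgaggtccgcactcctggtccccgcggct
Loxl4: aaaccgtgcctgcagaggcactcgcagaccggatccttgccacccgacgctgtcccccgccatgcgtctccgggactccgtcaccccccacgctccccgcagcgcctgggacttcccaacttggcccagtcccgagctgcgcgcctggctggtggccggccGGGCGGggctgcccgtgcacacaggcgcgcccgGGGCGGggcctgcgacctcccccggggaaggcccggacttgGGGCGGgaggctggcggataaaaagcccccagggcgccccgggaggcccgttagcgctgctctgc
P4ha2: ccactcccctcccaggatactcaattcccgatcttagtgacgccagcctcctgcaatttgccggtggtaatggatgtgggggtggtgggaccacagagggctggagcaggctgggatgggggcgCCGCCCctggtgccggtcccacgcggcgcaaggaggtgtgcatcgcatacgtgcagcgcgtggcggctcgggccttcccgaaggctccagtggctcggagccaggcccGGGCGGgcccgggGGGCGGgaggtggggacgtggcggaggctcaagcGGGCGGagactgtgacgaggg
Searched on both strands, GGGCGG was found in 22 of the members' 32 windows (68.8%) against 35.7% of all 32851 windows. The CCAAT letters were found in 28.1% against 37.4%, TATAAA in 18.8% against 13.6%, the E-box letters CANNTG in 46.9% against 72.3%, and the STAT-type letters TTCNNNGAA in 0 of 32 windows against 8.3%. Matches of different motifs were counted apart, also where they share bases, and they describe letters, not binding.

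The knockdown was visible in the values. In the second dataset Pcbp1 stood at 287 and 312 CPM (CPM, the deposited counts scaled to library size) in NMuMG and at 14.1 and 14.2 CPM after knockdown, and in the first it lay between 19.9 and 39.5 CPM. Fam3c stood at 26.4, 33.9 and 42.9 CPM in the FAM3C KO clones against 47.0 to 59.4 CPM in the shPCBP1 lines. Lifr stood at 34.9, 29.3 and 14.6 CPM in the LIFR KO clones, within or below the 25.8 to 40.2 CPM of the shPCBP1 lines, and the methods describe excision of a short coding segment, which need not lower RNA, so this level checks nothing about the LIFR KO label. The lowest deposited values imply 16031859 to 46901675 reads per library in the first dataset. In the second, where the lowest value stands for no reads, the spacing of the low values implies 52994171 to 56433409 reads. In LIFR KO 2 and LIFR KO 3 and in the double knockout, gene values relative to the mean of the shPCBP1 lines fell with GC content (Spearman's rho across genes of −0.76, −0.75 and −0.71). In the other 8 libraries rho was −0.29 to 0.24, where the shPCBP1 lines are part of their own reference. Calls of members and of other pathway genes in LIFR KO are therefore given also with LIFR KO 1 as the only LIFR KO library. That arm then holds 1 library, assumed to vary like the other groups, which alone give the spread behind its p-values.

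Cell type markers were read in the same way. Of 8 epithelial markers, 5 are listed in the first dataset, and the second lists 6. They summed to 2.94e+03 to 2.99e+03 CPM in NMuMG and 2.77e+03 to 2.82e+03 CPM in shPCBP1 samples, with Cdh1 at 232 and 237 CPM before and 149 CPM in both samples after knockdown. Mesenchymal markers summed to 598 and 617 CPM in NMuMG and to 1.63e+03 and 1.66e+03 CPM in shPCBP1 samples. Of these markers, 7 of 7 passed the test as higher, where 42.1% of all genes did. Snai2 stood at 0.319 and 0.415 CPM in NMuMG and at 1.67 and 1.66 CPM in shPCBP1 samples. It reached the average of 0.5 CPM needed for testing only through the shPCBP1 group, so this count is a description. Of the 5 epithelial markers tested in the second dataset, 4 passed as lower, where 38.0% of all genes did, and Krt18 passed as higher. Krt18 rose by 0.08 on the log2 scale (limma, adjusted p = 0.00815). The lower ones were Krt7 (log2 fold change −3.49), Cdh1 (−0.65), Krt19 (−0.17) and Krt8 (−0.07). The fibroblast list never summed above 2.99 CPM in any library, and Lum, Dcn, Thy1 and Dpt have no row in the first dataset. Basal (5.24 CPM at most), endothelial (2.24 CPM) and adipocyte (0.751 CPM) lists were also low. The immune list reached 10.8 CPM in the first dataset, all of it Cd68, a lysosomal marker of macrophages, and summed to 1.13 CPM in NMuMG and 1.68 CPM in shPCBP1 samples, where Cd68 passed as higher (1.48-fold; limma, adjusted p = 0.00281). The mesenchymal markers moved with the collagens described next, and the part of these markers in the result was not tested.

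Knockdown of PCBP1 went with a higher level of most detected collagen chains. In the second dataset 21 of the 38 listed members averaged 0.5 CPM or more and were tested among 11384 genes. By limma on log2(CPM + 0.1), with a Benjamini-Hochberg adjusted p under 0.07, 15 members were higher in shPCBP1 cells, where 42.1% of all genes tested were higher, and 4 were lower, where 38.0% of all genes were lower. With a fold change of at least 2 added, 10 members were higher against 7.56% of all genes, and 0 were lower against 6.99%. Of the 15 higher members, 6 (Col5a1, Col12a1, Col4a3, Col4a4, Col6a2 and Col16a1), 5 of them among the 10, averaged under 0.5 CPM in NMuMG and passed the filter only through the shPCBP1 group, so the counts and the median are a description. The median log2 fold change was 0.76 over the members and 0.03 over all genes. Fold changes are on the log2(CPM + 0.1) scale, which understates the change of low genes. Summed over all 38 members, the level rose from 413 and 404 CPM to 556 and 557 CPM, which is 264 and 256 CPM against 357 and 354 CPM for the chains and 148 CPM in both samples against 199 and 203 CPM for the enzymes.

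**Figure D1:**
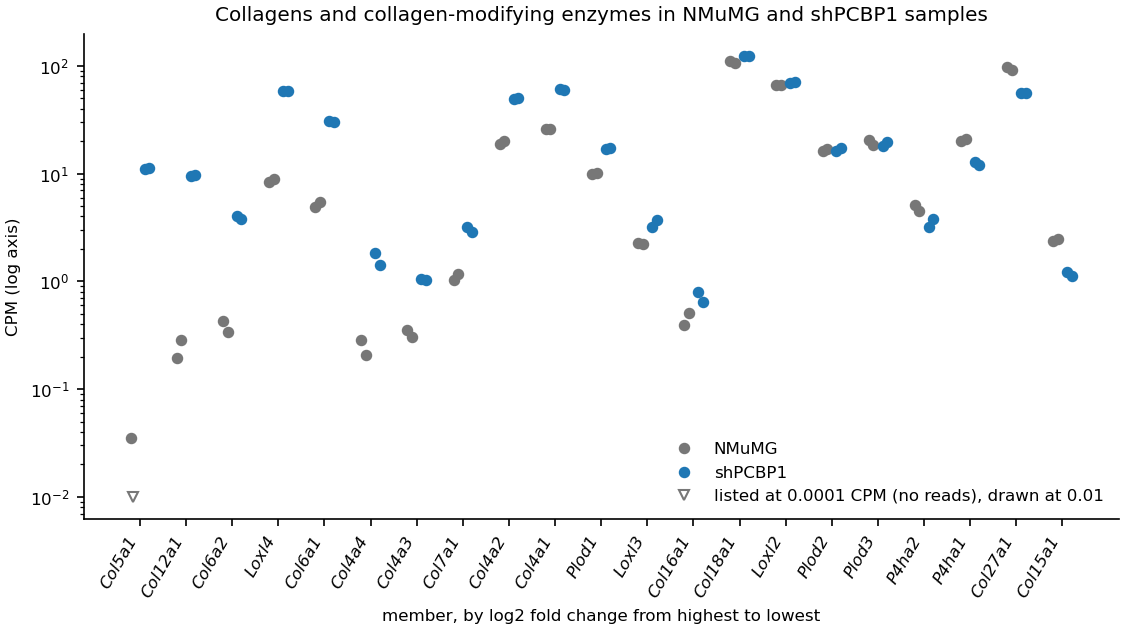
CPM of the 21 tested members in the 4 samples of the second dataset, on a log axis, with 1 point per sample and genes ordered from the highest to the lowest log2 fold change. The shPCBP1 points sit above the NMuMG points for 15 members and below them for 4, and the NMuMG sample of Col5a1 listed at 0.0001 CPM is drawn as an open triangle at 0.01 CPM.

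Among the fibrillar chains, Col5a1 and Col27a1 moved in opposite directions. Col5a1 (chr2:27886425-28039514), the chain of type V collagen that nucleates fibrils, was listed at 0.0355 and 0.0001 CPM in NMuMG, the latter being the value deposited in place of no reads, and at 11.1 and 11.2 CPM in shPCBP1 cells. Only 1 NMuMG sample held any reads of the gene, about 2 of them, so the log2 difference of 6.59 depends on the pseudocount (3.58 with a pseudocount of 1 CPM) and is not a measured fold. It passed under both (limma, adjusted p = 6.66e-11 and 6.12e-13). Col27a1, a fibrillar chain best known from cartilage, stood at 97.5 and 90.8 CPM in NMuMG and at 56.5 and 56.2 CPM after knockdown. Its log2 fold change was −0.74 ± 0.0341 (SE; limma, adjusted p = 5.33e-09), with no overlap between groups. The remaining listed fibrillar chains were too low to test. Col1a1 stood at 0.106 and 0.283 CPM in NMuMG and at 0.645 and 0.591 CPM in shPCBP1 samples, Col11a2 was the highest of the untested members at 0.867 CPM in 1 NMuMG sample, Col5a2 and Col5a3 had no reads in NMuMG and at most 0.215 CPM in shPCBP1 samples, and Col2a1 reached 0.126 CPM.

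Counts by role stand against the 42.1% and 38.0% of all genes called higher and lower. All 4 tested basement membrane chains were higher in shPCBP1 cells, with a median log2 fold change of 1.39. Of these, Col4a3 and Col4a4 passed the filter only through the shPCBP1 group, so this count and median are a description. Col4a1 stood at 25.9 and 26.1 CPM before and 61.3 and 59.5 CPM after knockdown, a 2.31-fold rise (log2 fold change 1.21 ± 0.0332 (SE); limma, adjusted p = 9.00e-11). Its partner Col4a2 stood at 18.99 and 19.9 CPM against 49.6 and 50.4 CPM, a 2.56-fold rise (1.36 ± 0.0386; adjusted p = 1.21e-10). The shPCBP1 samples held more of both chains of the common type IV trimer than either NMuMG sample. Col4a3 and Col4a4, chains of the more restricted trimer known from kidney and lung, lay under 1 CPM in NMuMG. Col4a4 rose from 0.283 and 0.207 CPM to 1.83 and 1.40 CPM (log2 fold change 2.31 ± 0.192; adjusted p = 7.15e-07), and Col4a3 from 0.357 and 0.302 CPM to 1.06 and 1.04 CPM (1.42 ± 0.169; adjusted p = 1.48e-05). With a pseudocount of 1 CPM their log2 fold changes were 1.07 and 0.63.

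The beaded filament and anchoring chains rose as well, in 3 of 3 tested. Col6a2 passed the filter only through the shPCBP1 group, so this count is a description. Col6a1 stood at 4.87 and 5.49 CPM in NMuMG and at 30.7 and 29.9 CPM in shPCBP1 samples, a 5.77-fold rise (log2 fold change 2.53 ± 0.0674; limma, adjusted p = 7.31e-11). Col6a2, which assembles with it, rose from 0.425 and 0.340 CPM to 4.05 and 3.83 CPM (3.07 ± 0.149; adjusted p = 7.76e-09), with 1.84 at a pseudocount of 1 CPM. The third classical type VI chain, Col6a3, was not tested, at 0.0355 CPM and no reads in NMuMG and 0.341 and 0.388 CPM in shPCBP1 samples. Col7a1, the anchoring fibril chain, rose from 1.03 and 1.17 CPM to 3.17 and 2.88 CPM (1.39 ± 0.133; adjusted p = 2.40e-06).

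Fibril-associated and multiplexin chains were mixed. Col12a1, a fibril-associated chain found in tissues under mechanical load, rose from 0.195 and 0.283 CPM to 9.46 and 9.63 CPM. Its log2 fold change was 4.84 ± 0.151 (SE; limma, adjusted p = 2.44e-10), and 3.09 with a pseudocount of 1 CPM. Col16a1 stayed under 1 CPM in every sample, at 0.390 and 0.509 CPM against 0.789 and 0.647 CPM (log2 fold change 0.58, adjusted p = 0.0157). Col18a1, the multiplexin from which endostatin is released, had the highest mean level per kilobase of exon in either group (15.5 and 17.6 CPM per kb). It stood at 111 and 107 CPM against 124 CPM in both shPCBP1 samples and passed with a small rise of 0.19 on the log2 scale (adjusted p = 4.44e-05). The other multiplexin, Col15a1, fell from 2.39 and 2.49 CPM to 1.22 and 1.13 CPM (log2 fold change −0.997 ± 0.129; adjusted p = 2.98e-05).

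The enzymes did not move as 1 group. The lysyl oxidases rose in 3 of 3 tested, by 0.09 to 2.75 on the log2 scale. Loxl4 stood at 8.32 and 8.99 CPM in NMuMG and at 58.2 and 58.9 CPM in shPCBP1 samples, a 6.71-fold rise (log2 fold change 2.75 ± 0.0477 (SE); limma, adjusted p = 3.69e-12), the largest fold among the enzymes tested. Loxl3 rose from 2.27 and 2.21 CPM to 3.17 and 3.67 CPM (log2 fold change 0.59, adjusted p = 0.000849), and Loxl2, which also oxidises type IV collagen, rose from 66.2 and 65.7 CPM to 70.0 and 70.2 CPM (0.09, adjusted p = 0.0106). Lox had reads in 1 NMuMG sample only, at 0.0178 CPM, and Loxl1 reached 0.0371 CPM.

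The prolyl 4-hydroxylases fell in 2 of 2 tested. P4ha1 stood at 19.9 and 21.01 CPM in NMuMG and at 12.9 and 11.99 CPM in shPCBP1 samples (log2 fold change −0.71 ± 0.0570; limma, adjusted p = 5.36e-07). P4ha2 stood at 5.06 and 4.53 CPM against 3.19 and 3.77 CPM (−0.45 ± 0.113; adjusted p = 0.00343). Neither gene's groups overlapped. Of the lysyl hydroxylases, Plod1 rose from 9.95 and 10.2 CPM to 16.9 and 17.3 CPM (0.76 ± 0.0556; adjusted p = 2.55e-07), while Plod2, at 16.1 and 16.8 CPM against 16.3 and 17.4 CPM, and Plod3, at 20.5 and 18.4 CPM against 18.1 and 19.7 CPM, overlapped between groups and did not pass (adjusted p = 0.562 and 0.564). The other genes of collagen folding, export, processing and uptake, a list of 34, had 20 tested, of which 14 were higher (42.1% of all genes), 7 of them at least 2-fold (7.56% of all genes), and 3 were lower (38.0% of all genes). Serpinh1, the collagen chaperone HSP47, rose from 0.0355 and 0.0944 CPM to 56.6 and 61.2 CPM, P3h2, a prolyl 3-hydroxylase, from 0.152 and 0.113 CPM to 5.26 and 6.05 CPM, and Pcolce2, an enhancer of procollagen processing, from 0.390 and 0.283 CPM to 8.78 and 9.16 CPM. Each of these genes averaged under 0.5 CPM in NMuMG and passed the filter only through the shPCBP1 group. The counts of this list are therefore a description. The collagen receptors moved in opposite directions. Ddr1 fell from 53.1 and 52.0 CPM to 29.9 and 30.3 CPM (log2 fold change −0.80; limma, adjusted p = 1.86e-09), and Ddr2 rose from 5.59 and 4.73 CPM to 27.2 and 26.7 CPM (2.37; adjusted p = 3.46e-10).

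**Figure D2:**
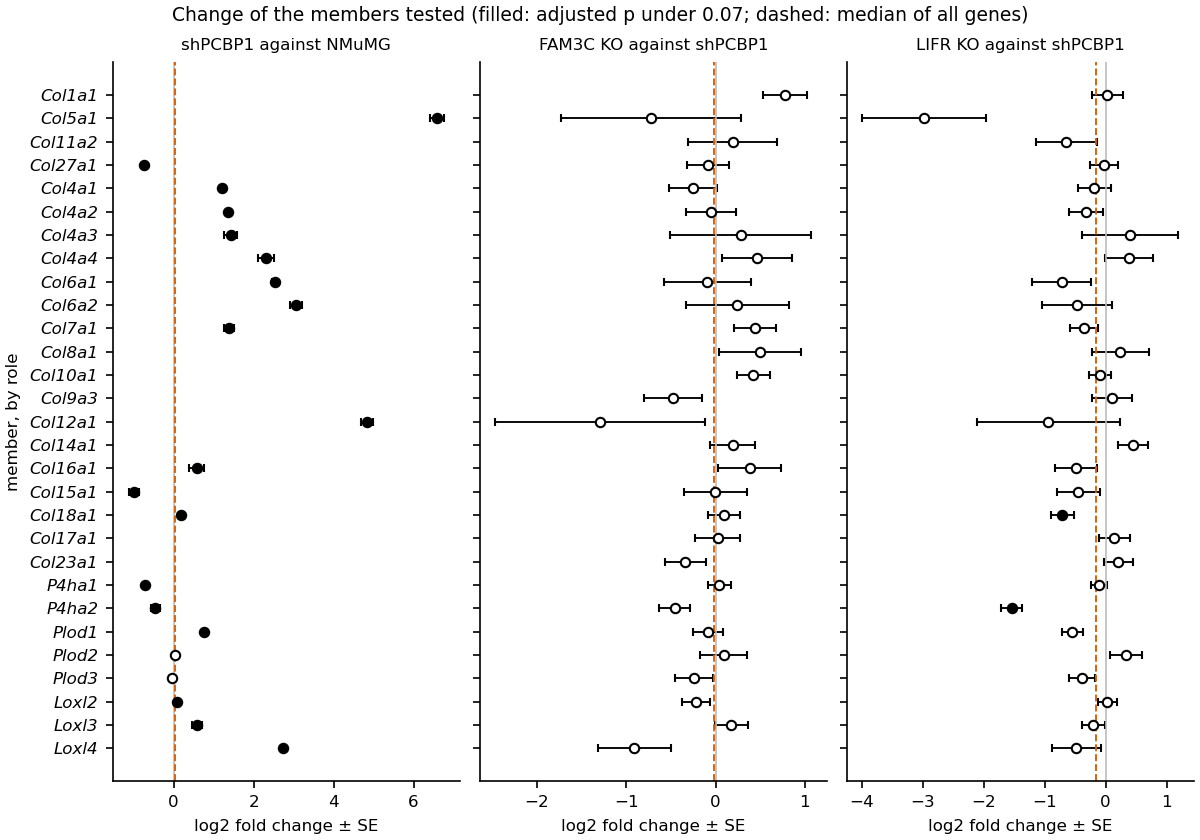
Log2 fold change with its SE (limma, log2(CPM + 0.1)) for the 29 members tested in either dataset, ordered by role, in panels for shPCBP1 against NMuMG, FAM3C KO against shPCBP1 and LIFR KO against shPCBP1, each with its own axis. Filled points passed an adjusted p under 0.07 and dashed lines mark the median of all genes. In the left panel 19 members are filled, in the middle 0, and in the right 2, P4ha2 and Col18a1.

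In the first dataset the members spanned a wide range of levels. Of the 37 listed, 16 reached 10 CPM and 5 reached 100 CPM in at least 1 library, and 8 never reached 1 CPM. Per kilobase of exon, the highest mean levels in the shPCBP1 lines were Col18a1 at 32.1, Loxl4 at 24.7, Col4a1 at 14.8, Col4a2 at 12.6, Plod3 at 12.5, Col27a1 at 11.1 and Loxl2 at 10 CPM per kb. The 29 members that averaged 0.5 CPM or more were tested among 12621 genes. The 8 left out were Col11a1, Col20a1, Col3a1, Col4a6, Col6a3, Col6a6, Col8a2 and P4ha3, of which the highest value was 1.94 CPM, for Col3a1 in FAM3C KO 2. The classical type I and III collagens of fibroblasts were low, with Col1a1 between 1.82 and 5.23 CPM in every library. Collagen genes have many short exons. The median exon is 63.75 bases and the median number of exons 49.5 for the collagen members, against 147 and 8 for all listed genes, and 53.7% of their transcript bases lie in exons of at least the read length of 150 bases, against 85.1%. The aligner named in the methods, Bowtie2, does not split reads across introns, and the effect of this on the levels was not tested.

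FAM3C KO was compared with shPCBP1 to ask which genes depend on FAM3C once PCBP1 is lost. Of the 29 members, 0 passed (limma), where 0.309% of all genes tested passed, and 4 had an unadjusted p under 0.05. Of the members, 15 had a positive and 14 a negative log2 fold change, with a median of 0.02 against −0.01 for all genes. FAM3C KO clones lay above all shPCBP1 lines for 1 member, Col10a1 (10.1% of all genes), and below them for 5, Col23a1, Col9a3, Loxl4, P4ha2 and Plod3 (12.5% of all genes).

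Of the 4 with an unadjusted p under 0.05, Loxl4 had the largest difference and did not pass. Its level was 81.5, 90.4, 118 and 126 CPM in the unaltered line and CT 1, 2 and 3, and 64.8, 38.1 and 65.0 CPM in FAM3C KO 1, 2 and 3, means of 104 ± 21.2 (SD, n = 4) and 56 ± 15.5 CPM (SD, n = 3). The groups did not overlap. The log2 fold change was −0.91 ± 0.409 (SE; limma, adjusted p = 0.487, and 0.0483 with these 2 groups fitted alone), the exact two-sided permutation p being 0.0286, the smallest that 4 against 3 libraries allow. P4ha2 stood at 7.79, 6.80 and 7.57 CPM in FAM3C KO against 8.98, 10.9, 8.61 and 12.6 CPM (log2 fold change −0.46 ± 0.173; limma, adjusted p = 0.376). The other two were Col1a1, a chain of type I collagen, at 4.78, 3.16 and 5.23 CPM against 1.82 to 3.24 CPM (0.78, adjusted p = 0.276), and Col10a1, a network-forming chain, at 3.14, 2.84 and 3.57 CPM against 2.16 to 2.68 CPM (0.42, adjusted p = 0.461). Neither they nor P4ha2 passed.

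LIFR KO was compared with the same 4 shPCBP1 lines, so the results of both knockouts share their controls. Of the 29 members, 2 were lower in LIFR KO, where 5.55% of all genes were lower, and 0 were higher, where 0.911% were. The median log2 fold change was −0.20 for the members and −0.16 for all genes, and 10 members had a positive and 19 a negative value. After median-ratio rescaling the median of all genes was −0.01 and its calls went from 115 higher and 701 lower to 180 higher and 287 lower. LIFR KO clones lay above all shPCBP1 lines for 1 member, Col14a1 (3.95% of all genes), and below them for 2 (13.2% of all genes), the same 2 that passed. Without LIFR KO 1, which leaves the 2 clones with the GC trend, 11 of 29 members passed, 10 of them lower, where 57.3% of all genes passed and 40% were lower. Without any 1 of the other libraries compared the count was 1.

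Cell type markers also differed in LIFR KO. The epithelial list summed to 1.21e+03 to 2.1e+03 CPM in LIFR KO, 2.47e+03 to 3.17e+03 CPM in shPCBP1 and 2e+03 to 3.03e+03 CPM in FAM3C KO, and the mesenchymal list to 1.61e+03 to 2.21e+03 CPM, 2.11e+03 to 2.37e+03 CPM and 2.37e+03 to 2.55e+03 CPM. Of the epithelial keratins, Krt18 was lower in LIFR KO (log2 fold change −0.73; limma, adjusted p = 0.0663), and Krt8 (−0.96; adjusted p = 0.0701), Krt19 (−0.80; adjusted p = 0.0967) and the mesenchymal Vim (−0.40; adjusted p = 0.0842) did not overlap with shPCBP1 but did not pass. Krt18 stood at 656, 402 and 730 CPM in LIFR KO 1, 2 and 3, against 823 to 1038 CPM in shPCBP1. Of the tested markers, 1 of 5 epithelial and 3 of 7 mesenchymal ones had a positive log2 fold change. Krt7 (0.39) overlapped with shPCBP1 and Cdh1 hardly moved (−0.04). Zeb1 (0.09) lay above every shPCBP1 line, and Zeb2 (0.33) and Cdh2 (0.33) overlapped. None of these passed. The part of the markers in the results that follow was not tested.

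P4ha2 (chr11:54100095-54131665), a catalytic alpha subunit of prolyl 4-hydroxylase, was lower in every LIFR KO clone. It stood at 2.90, 3.54 and 3.95 CPM in LIFR KO 1, 2 and 3, against the 8.61 to 12.6 CPM of the shPCBP1 lines, means of 3.46 ± 0.528 (SD, n = 3) and 10.3 ± 1.84 CPM (SD, n = 4), with 4.36 CPM in the double knockout. The highest LIFR KO value was under the lowest shPCBP1 value. The difference was 2.90-fold (log2 fold change −1.54 ± 0.173 (SE); limma, adjusted p = 0.0113; exact two-sided permutation p = 0.0286). LIFR KO 1, whose values did not fall with GC content, had the lowest P4ha2, and taken as the only LIFR KO library gave −1.77 (adjusted p = 0.00933). A correction for GC content gave −1.14 (adjusted p = 0.0792), and −1.20 (adjusted p = 0.239) with the replicate number as a block added.

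Col18a1 was also lower in LIFR KO, with most of the difference in 2 clones. Its level was 224, 212, 230 and 234 CPM in the shPCBP1 lines and 199, 100 and 130 CPM in LIFR KO 1, 2 and 3, means of 225 ± 9.33 (SD, n = 4) and 143 ± 50.7 CPM (SD, n = 3). LIFR KO 1 lay just under the shPCBP1 range and the clones with the GC trend far under it. The log2 fold change was −0.71 ± 0.184 (SE; limma, adjusted p = 0.0595; exact permutation p = 0.0286). With LIFR KO 1 as the only knockout library it was −0.18 (adjusted p = 0.420), and after correction for GC content −0.02 (adjusted p = 0.927). It also lost its call without any 1 shPCBP1 line and without LIFR KO 2 or LIFR KO 3 (adjusted p = 0.109 to 0.225), with log2 fold changes of −0.74 to −0.67, and −0.49 without LIFR KO 2, against −0.71.

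The type IV chains followed the same clones. Col4a1 stood at 97.2, 76.4, 135 and 133 CPM in the shPCBP1 lines and at 152, 73.2 and 75.1 CPM in LIFR KO, and Col4a2 at 70.4, 60.8, 94.4 and 108 CPM against 111, 50.7 and 49.1 CPM. LIFR KO 1 was above every shPCBP1 line for both chains and the others below every line, and neither chain passed over the 3 clones (adjusted p = 0.618 and 0.416). Without LIFR KO 1 both did (−0.70, adjusted p = 0.0142 for Col4a2, and −0.54, adjusted p = 0.0501 for Col4a1), where 57.3% of all genes did. After GC correction over the 3 clones the values turned positive, 0.36 for each chain, and did not pass (adjusted p = 0.303 for Col4a2 and 0.321 for Col4a1).

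Apart from Col5a1 and Col12a1, which are described with the spread between lines, the remaining members that reached 20 CPM did not pass in either knockout. Col27a1 stood at 164, 154, 138 and 119 CPM in the shPCBP1 lines, at 169, 102 and 142 CPM in FAM3C KO and at 205, 107 and 125 CPM in LIFR KO, with wide overlap (limma, adjusted p = 0.963 and 0.931). The lysyl hydroxylase Plod1 stood at 35.1 to 42.1 CPM in the shPCBP1 lines, 35.4 to 38.1 CPM in FAM3C KO, and 37.4, 22.8 and 21.8 CPM in LIFR KO (log2 fold change in LIFR KO −0.55 ± 0.172; adjusted p = 0.0816). Plod3, the lysyl hydroxylase that also glycosylates collagen, stood at 52.3 to 61.1 CPM in the shPCBP1 lines, 45.7 to 51.2 CPM in FAM3C KO, and 67.6, 38.9 and 30.9 CPM in LIFR KO. For both enzymes LIFR KO 2 and 3 were under every shPCBP1 line and LIFR KO 1 was not. Plod2, which hydroxylates the telopeptide lysines used in cross-links, went the other way, at 37.3 CPM in LIFR KO 1 and 64.2 and 67.8 CPM in the others, against 31.7 to 53.2 CPM in the shPCBP1 lines (0.33; adjusted p = 0.361). Col6a1 stood at 21.2 to 66.1 CPM in the shPCBP1 lines and 12.9 to 40.7 CPM in LIFR KO, Loxl2 at 44.8 to 71.1 CPM and 49.5 to 57.8 CPM, and P4ha1, the other prolyl 4-hydroxylase alpha subunit tested, at 22.1 to 26.7 CPM and 21.6 to 23.4 CPM (−0.11; adjusted p = 0.533). The LIFR KO and shPCBP1 ranges overlapped for each of these.

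**Figure D3:**
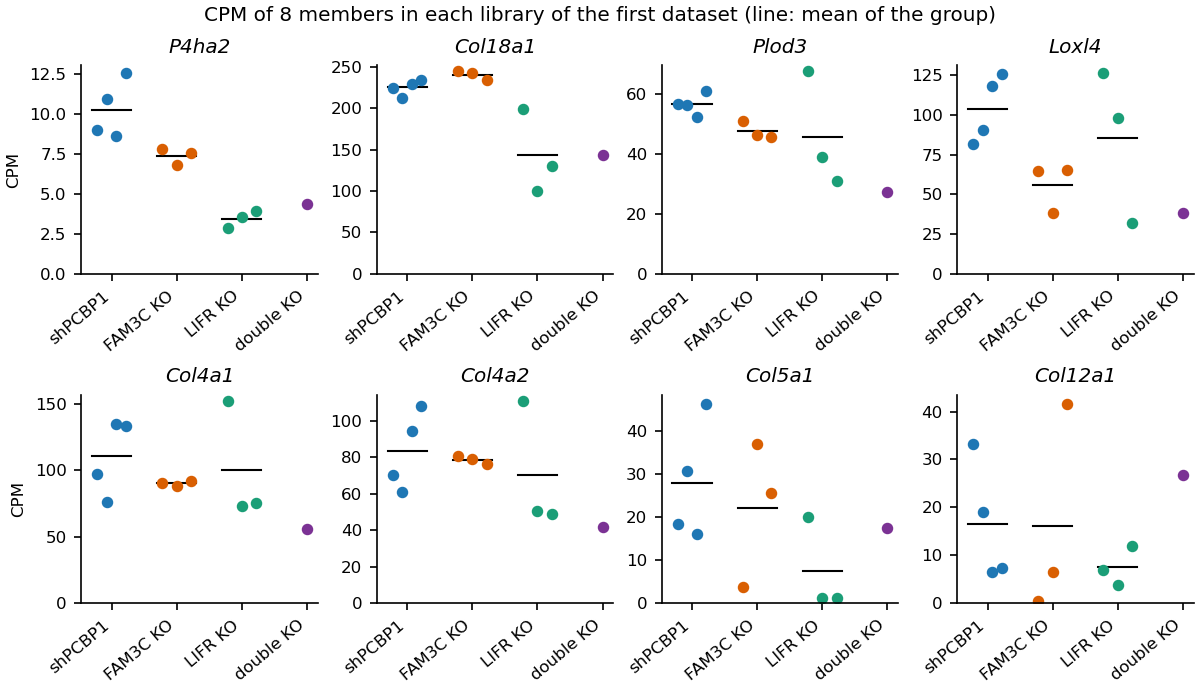
CPM of P4ha2, Col18a1, Plod3, Loxl4, Col4a1, Col4a2, Col5a1 and Col12a1 in the 11 libraries of the first dataset, with 1 point per library and a line at each group mean. P4ha2 lies between 2.90 and 3.95 CPM in the LIFR KO clones and at 6.80 CPM or more in the shPCBP1 and FAM3C KO libraries, whereas Col5a1 and Col12a1 scatter within every group.

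The FAM3C KO and LIFR KO clones were also compared with each other. Of the 29 members, 2 passed, both higher in FAM3C KO, where 8.28% of all genes tested passed in either direction. P4ha2 was 2.12-fold higher (log2 difference 1.08 ± 0.185 (SE); limma, adjusted p = 0.0323), and 1.32 on the log2 scale with LIFR KO 1 as the only LIFR KO library (adjusted p = 0.0149). Col18a1 stood at 245, 243 and 234 CPM in FAM3C KO and was 1.75-fold higher (0.81 ± 0.197; adjusted p = 0.0469), with 0.27 (adjusted p = 0.0903) against LIFR KO 1 alone and 0.15 (adjusted p = 0.380) after GC correction. For P4ha2 the GC-corrected difference was 0.73 (adjusted p = 0.133), and without FAM3C KO 1, 2 or 3 neither gene passed (P4ha2 adjusted p = 0.134, 0.0742 and 0.120; Col18a1 0.161, 0.105 and 0.131), while the differences stayed at 1.04 to 1.14 for P4ha2 and 0.79 to 0.83 for Col18a1. Col18a1 did not pass without LIFR KO 2 either (0.58; adjusted p = 0.145). Without LIFR KO 1, 10 of 29 members passed, all higher in FAM3C KO, where 52.9% of all genes passed and 37.2% were higher. Without LIFR KO 3 the count was 4 (11.6% of all genes), with Loxl4 then lower in FAM3C KO (−1.03; adjusted p = 0.0387).

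The median difference was 0.26 for the members and 0.14 for all genes. Calls over all genes went from 862 higher and 183 lower to 500 higher and 325 lower under median-ratio rescaling.

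Several collagen chains differed more between lines of 1 group than between groups. The SD of log2 values within groups had a median of 0.39 over the 29 members and 0.24 over all genes, and 23 of 29 members lay above the latter. This SD pools all groups, and LIFR KO 2 and LIFR KO 3 carried the GC trend while LIFR KO 1 did not. The part of that trend in the spread was not tested. Over the 4 shPCBP1 lines, 7 members spanned at least 2-fold (9.02% of all genes did), and over the 10 libraries in the fit, 3 spanned at least 10-fold (4.44% of all genes). Col12a1 stood at 33.3, 19.04, 6.51 and 7.42 CPM in the shPCBP1 lines, 0.487, 6.52 and 41.5 CPM in FAM3C KO 1, 2 and 3, and 6.97, 3.87 and 11.96 CPM in LIFR KO, an 85.3-fold span that falls within the FAM3C KO clones. Only 0.444% of genes had a larger SD within groups. Col5a1 stood at 18.4, 30.8, 16.2 and 46.3 CPM in the shPCBP1 lines, 3.85, 37.0 and 25.5 CPM in FAM3C KO, and 20.1, 1.17 and 1.24 CPM in LIFR KO. Its log2 fold change in LIFR KO of −2.98 ± 1.01 did not pass (limma, adjusted p = 0.0901), and LIFR KO 1 lay within the shPCBP1 range. Col4a3 ranged from 0.400 CPM in FAM3C KO 2 to 6.22 CPM in FAM3C KO 1. Col5a1, Col12a1 and Col4a3 are described here after their values were seen. The enzymes ranged from 0.15 for P4ha1 and 0.21 for P4ha2, with 76.5% and 58.4% of genes above them, to 0.40 for Plod2 and 0.64 for Loxl4, with 17.5% and 6.66% of genes above them.

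**Figure D4:**
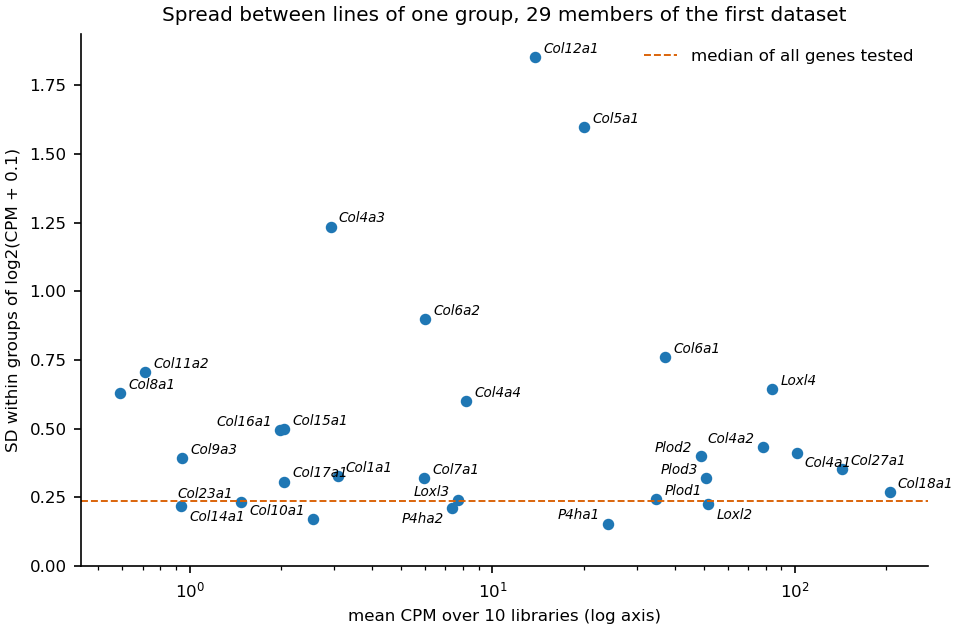
SD of log2(CPM + 0.1) within the groups of the first dataset against mean CPM over 10 libraries for the 29 tested members, with a dashed line at the median of all genes (0.24). Col12a1, Col5a1 and Col4a3 are at the top, and P4ha1, Col10a1 and P4ha2 are among the lowest.

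Chains of the same trimer were compared across libraries. Their CPM ratios are not corrected for length and are given for their spread only. The ratio of Col4a1 to Col4a2 lay between 1.11 and 1.53 over the 11 libraries of the first dataset, while the chains themselves spanned 2.74-fold and 2.67-fold, and between 1.18 and 1.37 in the second. The annotated genes overlap by 22 bases on opposite strands, and whether counting used strand is not stated. Col6a1 over Col6a2 ranged from 4.68 to 9.70 in the first dataset, with spans of 5.14-fold and 4.97-fold. Col4a4 over Col4a3 was less even, from 1.75 to 5.39 in the 10 libraries with both at 1 CPM or more.

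The double knockout was 1 library and was not tested. Of the 29 members, 13 lay below all 4 shPCBP1 lines, against 53.8% of all genes, and 7 above them, against 26% of all genes. Col4a1 at 55.7 CPM, Col4a2 at 41.5 CPM and Plod3 at 27.2 CPM were under every other library of the first dataset, and this library carried the GC trend. Summed member levels were 989 to 1.12e+03 CPM in the shPCBP1 lines, 887 to 988 CPM in FAM3C KO, 1.13e+03 CPM in LIFR KO 1, 687 and 699 CPM in LIFR KO 2 and 3, and 674 CPM in the double knockout. The 34 other genes of the pathway had 22 tested in the first dataset, of which 0 passed in FAM3C KO (0.309% of all genes) and 2 were lower in LIFR KO (5.55% of all genes). Pcolce2 stood at 18.9, 11.3 and 15.1 CPM in LIFR KO 1, 2 and 3 against 20.1 to 29.2 CPM in the shPCBP1 lines (log2 fold change −0.70; limma, adjusted p = 0.0563). With LIFR KO 1 as the only LIFR KO library it was −0.35 (adjusted p = 0.468), and after GC correction −0.71 (adjusted p = 0.113). Ddr1 stood at 58.4, 30.9 and 31.7 CPM against 60.9 to 80.8 CPM (−0.79; adjusted p = 0.0622), with −0.19 (adjusted p = 0.706) for LIFR KO 1 alone and −0.14 (adjusted p = 0.467) after GC correction. Neither call held under these settings.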

How the data were processed

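RNA-Seq of 15 samples was used, 11 of them in the first dataset and 4 in a second. According to the methods, the authors sequenced rRNA-depleted libraries as paired-end reads of 150 bases, aligned them to GRCm38 with Bowtie2 in Partek Flow and ran DESeq2 there. The paper calls the second dataset preexisting, and its RNA-Seq methods do not mention that dataset separately. Whether they cover it is therefore not known. The deposited values are CPM, counts scaled to library size, per gene and sample. In the second dataset the authors also deposited group means and a ratio of means, which were not used. The datasets were normalized separately and levels are not compared between them. Low values of the second dataset were whole reads within 0.1 of a read for 92.3% to 92.8% of values, so reads were not recovered and no count test was run.

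Here genes averaging 0.5 CPM or more were fitted as log2(CPM + 0.1) in limma 3.58.1 (R 4.3.3) with a mean-variance trend, 12621 and 11384 genes in turn. The 3 groups of the first dataset shared 1 fit, and the double knockout entered none. Calls used a Benjamini-Hochberg adjusted p under 0.07. Exact permutation tests (scipy 1.17.1) were two-sided. The fit was tested on simulated data. Gene positions are those of GENCODE M21 (GRCm38), since starts in the first dataset match it for 371 of 13870 genes and in the second for 14373 of 14795. The rule for naming members took those that passed in the second dataset at 2-fold or more and reached 1 CPM in a group. It also took those that passed in the first, did not overlap between groups at that fold, or were among the 5 most abundant. Values per sample are also given for other members, which did not meet this rule. The members and lists were chosen with earlier results of these data known. Alternatives covered scaling, pseudocount, filter, threshold, GC content, the replicate block and each replicate left out.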

Additional observations from a re-analysis of the deposited data

Results flagged for a closer look

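Among the 4 shPCBP1 lines, Col15a1 stood at 1.03 CPM in CT 3, against 2.56 to 2.83 CPM in the others, which is further from the rest than expected in a group of 4. It was the only one of 29 members so marked, and about 1 in 20 such groups would be by chance.

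The effect of the knockouts on P4ha2 differed between FAM3C KO and LIFR KO, by 1.08 on the log2 scale in the direct comparison (limma, adjusted p = 0.0323; higher in 3 of 3 FAM3C KO clones than in any LIFR KO clone). For Col18a1 the difference was 0.81 (adjusted p = 0.0469), also without overlap, and the values with LIFR KO 1 alone are given with the comparison.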

How the results depend on the processing

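The 19 members that passed in shPCBP1 against NMuMG ranged from 15 to 28 over the alternatives (28 without a filter on low values, 17 to 19 with each replicate left out, 19 with the replicate block). In FAM3C KO against shPCBP1 the count went from 0 to 1 with the 2 groups fitted alone (Loxl4, adjusted p = 0.0483), and stayed at 0 to 0 with each replicate left out. Over all genes that setting moved 39 calls to 1040. In LIFR KO against shPCBP1 the count of 2 went to 1 with median-ratio rescaling, an adjusted p under 0.05, the replicate block, the 2 groups alone and LIFR KO 1 as the only LIFR KO library, to 0 with GC correction and 0 with GC correction and the replicate block, and to 1 to 11 with each replicate left out, 11 being without LIFR KO 1. Over all genes 816 calls became 467 with median-ratio rescaling, 359 at 0.05, 10 with the block, 34 with the 2 groups alone, 40 and 3 with GC correction without and with the block, 280 with LIFR KO 1 alone and 7232 without LIFR KO 1. In FAM3C KO against LIFR KO the count of 2 went to 0 with the replicate block, the 2 groups alone, GC correction and GC correction with the replicate block, and to 0 to 10 with each replicate left out, 0 without any 1 FAM3C KO clone and 10 without LIFR KO 1. The cause was not tested. P4ha2 in LIFR KO kept its call in 15 of 17 alternatives (log2 fold change −1.77 to −1.14, adjusted p 0.000153 to 0.239), and Col18a1 in 5 of 17 (−0.98 to −0.02, adjusted p 7.4e-05 to 0.927). Replicate numbers did not pair the samples: deviations of same-numbered libraries correlated at −0.18 to 0.15 in the first dataset, with 0.05 in the other. No result reversed direction past the threshold. Depth limits members that never reach 1 CPM (8 of the first dataset, 18 of the second).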

Other observations

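Serpinh1, the collagen chaperone HSP47, was chosen here after its values were seen. In the first dataset it stood at 11.6 CPM in the unaltered shPCBP1 line. CT 1, CT 2 and CT 3 stood at 0.0213, 0.0404 and 0.137 CPM, and the FAM3C KO clones at 0.266, 0.04 and 0.115 CPM. In 7 libraries the value was the lowest of the library. These were CT 1, CT 2, FAM3C KO 2, the LIFR KO clones and the double knockout. The unaltered line, which was not taken through single-cell cloning or Cas9, was the only library above 1 CPM. It is 1 library, and the reason for its level was not tested. In the second dataset the same gene stood at 56.6 and 61.2 CPM in shPCBP1 samples.

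Ddr2, a receptor for fibrillar collagen, was also chosen after its values were seen. It stood at 51.2, 2.37, 8.49 and 51.8 CPM in the unaltered line and CT 1, 2 and 3, at 180, 139 and 199 CPM in the FAM3C KO clones, at 17.9, 4.66 and 177 CPM in the LIFR KO clones and at 213 CPM in the double knockout. The FAM3C KO clones lay above every shPCBP1 line, and the difference did not pass (log2 fold change 3.47 ± 1.25 (SE); limma, adjusted p = 0.348).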
